A study of Rattus norvegicus with 8 samples.

Results

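The genes described here build the peroxisome or run its lipid metabolism. They were taken from a list of 40 genes, and a gene was measured where the platform annotation gave a probe set its symbol and no other. For each gene the probe set with the highest mean signal over all 8 arrays was used. Of the 40 genes, 38 were measured in this way, out of 14217 genes named on the array. Acaa1a and Acaa1b, which encode the peroxisomal thiolases, share a probe set and have no value of their own. Among the 38, 6 were too dim to enter the tests (Acox2, Acox3, Abcd2, Acot4, Agps and Hao2), and 32 were tested.

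RNA came from scrapings of the distal colon mucosa of rats. The control group (4 arrays) ate a commercial rat breeder diet, and the quercetin group (4 arrays) was given 10 g of quercetin per kg of diet, both for 11 weeks. Quercetin is a flavonol found in many food plants. The sources used here do not give the strain, sex or age of the rats, and no label says that each array is a different rat, so every p measures the spread between these 8 samples, some of which may be technical. Control array 2 stood farthest from the rest, followed by control array 1. The comparison asks which transcripts of the mucosa differ between the diets.

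Peroxisomes shorten fatty acids that mitochondria handle poorly, such as very long, branched and dicarboxylic chains, and they carry out the opening steps of ether lipid synthesis. Their matrix enzymes are made in the cytosol and carried in by receptors, which are among the proteins called peroxins. In rodent liver many of these genes are induced through PPAR alpha, a nuclear receptor that senses fatty acids. The mucosal scraping holds mainly absorptive and goblet cells, which meet dietary flavonols and bacterial fatty acids from the lumen.

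Upstream sequences are shown to let a reader see what these genes carry just before their start. RefSeq (assembly GRCr8) gave an upstream stretch of 250 bases for 37 of the 40 genes, and the 3 without an entry were Ech1, Pex2 and Pex6. The stretches of Eci2 and Gnpat are printed because these genes and Ech1 had the smallest p-values of the list. The Eci2 stretch precedes a start that lies inside the span RefSeq gives the gene, so it may not be the outermost start. Both read 5′ to 3′ on the plus strand, at chr17:30075516-30075765 for Eci2 and chr19:69719457-69719706 for Gnpat. Capitals mark GGGCGG on either strand, the GC box of many housekeeping promoters.
Eci2: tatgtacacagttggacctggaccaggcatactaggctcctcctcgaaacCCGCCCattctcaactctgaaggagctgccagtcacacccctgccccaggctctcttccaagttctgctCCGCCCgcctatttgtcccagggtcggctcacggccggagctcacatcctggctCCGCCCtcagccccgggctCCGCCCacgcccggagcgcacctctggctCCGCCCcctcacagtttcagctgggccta
Gnpat: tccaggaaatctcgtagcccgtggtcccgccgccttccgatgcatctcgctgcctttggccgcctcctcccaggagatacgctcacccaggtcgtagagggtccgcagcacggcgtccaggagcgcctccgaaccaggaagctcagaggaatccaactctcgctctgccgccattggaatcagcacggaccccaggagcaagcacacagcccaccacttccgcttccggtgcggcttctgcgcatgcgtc

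Eci2 had 5 GC boxes in this window and Gnpat 0. A GC box was present in 27 of the 37 upstream stretches, 73.0%, against 52.3% of the 13243 stretches of genes on the array and 30.5% of all 33469 in the RefSeq table. The GC content was 58.1% in the list and 58.7% in the genes on the array. CCAAT was found in 17 of 37 (45.9%, against 34.6% for genes on the array) and TATAAA in 3 of 37 (8.11%, against 8.03%). These motifs were searched on both strands, and a match describes letters and no binding.

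PPAR and its partner RXR bind a pair of AGGTCA repeats with a single base between them, AGGTCANAGGTCA. This exact 13-letter form was in 0 of the 37 stretches and in 0.0302% of those of genes on the array. A single AGGTCA, which is part of that longer motif, was in 5 of 37 (13.5%, against 11.8%). Near matches of the paired form were not counted. In Acot8, gggtca and a single base precede the site, so this pair differs from the 13-letter form in a single letter. The site of Acot4, which was not tested, also has such a near pair. The 3 AGGTCA sites in members that were tested are shown on the coding strand, with AGGTCA in capitals. They lie at chr2:61673124-61673149 (plus strand, Amacr), chr3:173962189-173962213 (minus strand, Acot8) and chr18:45515361-45515386 (plus strand, Hsd17b4).
Amacr: cggagaccaaAGGTCAgcagctaaac
Acot8: caggggtcagAGGTCActgggtaac
Hsd17b4: cgaaaccaccAGGTCActtgtttgtg

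No peroxisomal gene differed between the diets after adjustment over all 18625 tested probe sets. Of the 32 tested genes, 0 passed an adjusted p of 0.05 in limma, where 0.0107% of all tested probe sets did, and 3 had an unadjusted p under 0.05. Those were Ech1, Eci2 and Gnpat, all with higher signals in the quercetin group. They make up 9.38% of the 32, against 10.8% of all tested probe sets at that p in either direction, 5.04% in the higher and 5.71% in the lower direction. The groups did not overlap in 1 gene, Eci2, which is 3.13% of the 32 against 6.39% of all tested probe sets (3.09% higher and 3.3% lower in quercetin). These shares are near or below the background, or rest on 3 genes, so they are no result about the list. In bulk RNA of scrapings, fewer cells of a type and less RNA per cell cannot be told apart.

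The fold changes lay mostly just above 0. On the scale of log2(signal + 16), where a positive value means a higher signal in quercetin, 22 of the 32 genes were above 0 and 10 below, that is 68.8% above against 51.3% of all tested probe sets. The median over the list was 0.15, and the median over all tested probe sets was 0.01. The values ran from -0.34 (Pex19) to 0.62 (Gnpat), and 11 of the 32 were within 0.1 of 0. With each array centred on its median, 84.4% of the 32 were above 0 and the list median was 0.20, while 58.4% of all tested probe sets were above 0 and their median was 0.06.

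**Figure D1:**
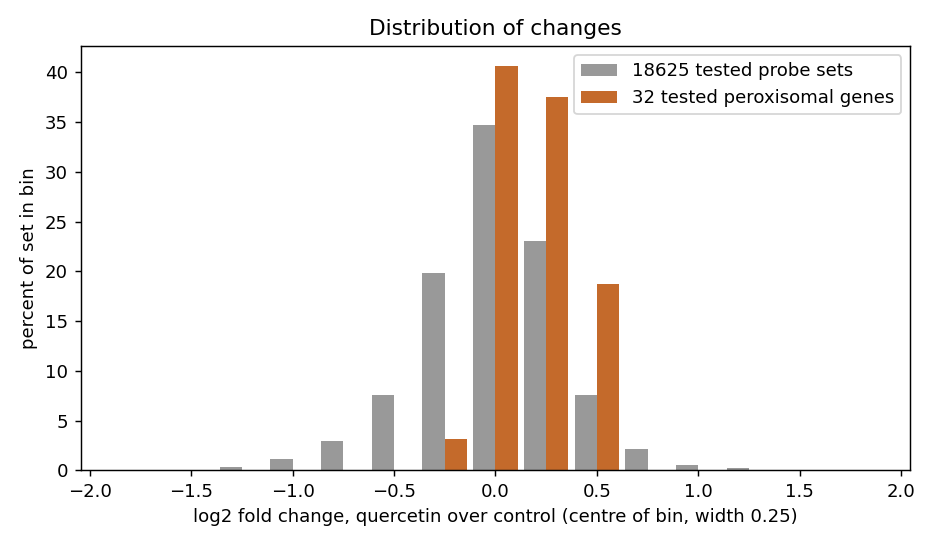
Share of tested probe sets (grey) and of the 32 tested peroxisomal genes (orange), in percent, by log2 fold change of quercetin over control in bins of width 0.25. Of the 32 genes, 13 fall in the bin centred on 0, 12 in the next bin above, 6 in the one beyond it and 1 in the bin below.

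The intervals show which changes these arrays allow. The 95% interval of a gene's log2 fold change reached 0.42 to either side at the median, from 0.30 for the most precise of the 32 to 0.74 for the least. For 28 of the 32 genes the whole interval lay within 1 on the log2 scale, a 2-fold change of signal + 16 in either direction. The other 4 were Abcd3, Pex6, Gnpat and Far1, whose upper bounds were 1.03, 1.11, 1.09 and 1.08. The arrays therefore do not exclude a 2-fold higher level of these 4 genes in quercetin. For dim genes, 1 on this scale is more than a 2-fold change of the signal itself. Abcd4, among the 28, had a mean control signal of 46.1 and a lower bound of -0.79, so a 2-fold lower signal is not excluded.

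**Figure D2:**
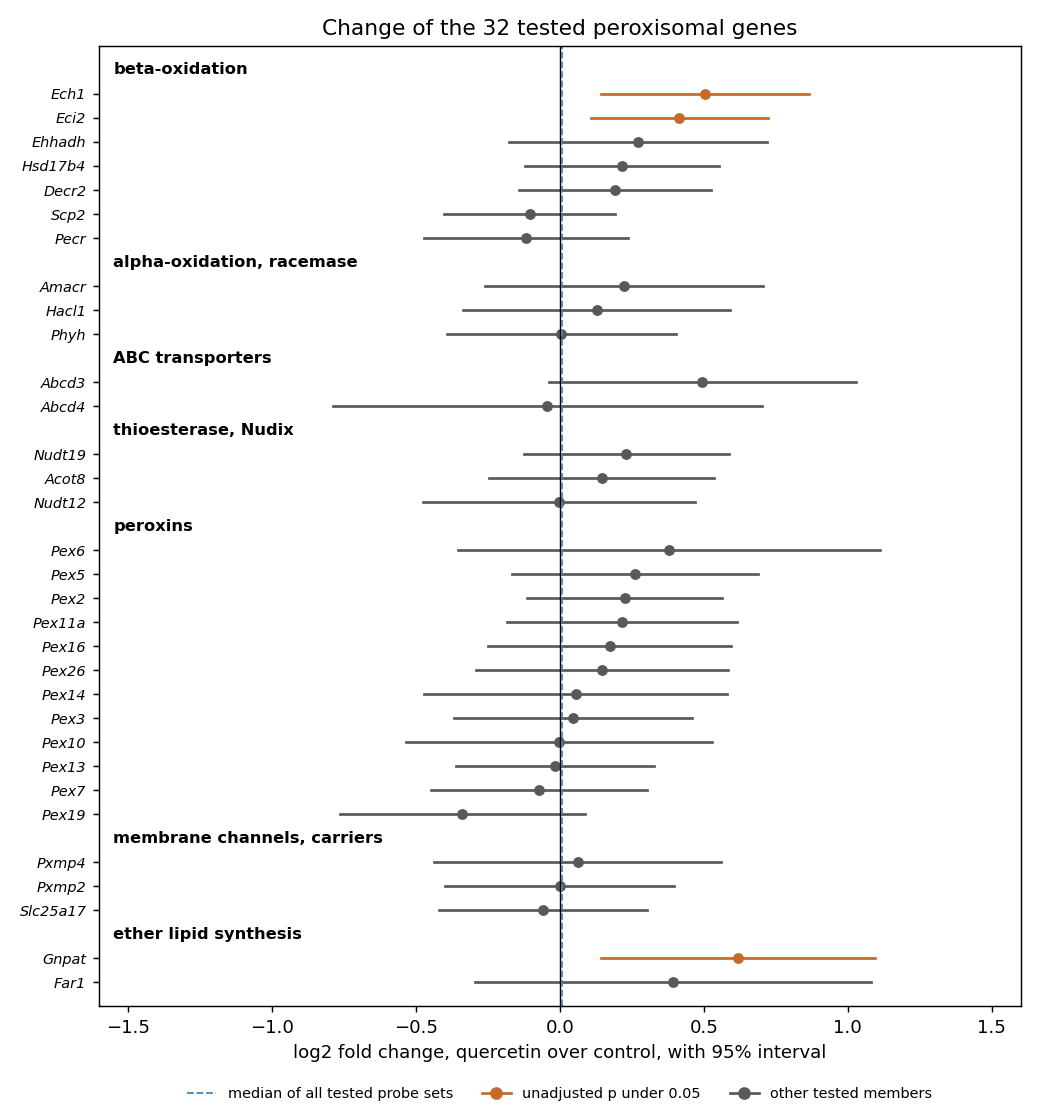
Log2 fold change (quercetin over control, x axis) of the 32 tested genes, grouped by role, with points for the estimate and lines for the 95% interval from limma. Intervals of Ech1, Eci2 and Gnpat, in orange, lie above 0, and all others, in grey, include 0. The dashed line marks the median of all tested probe sets, 0.01.

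The beta-oxidation enzymes cut acyl chains from their carboxyl end. In a round of it, an oxidase makes a double bond, a bifunctional enzyme adds water and oxidises, and a thiolase releases acetyl-CoA, while isomerases and reductases deal with chains that already hold double bonds. Of 11 listed genes 9 were measured and 7 tested, 5 of them above 0 and 2 below, with a median log2 fold change of 0.22. None of the 7 passed limma's adjusted threshold, and 2 had an unadjusted p under 0.05. These were Ech1 and Eci2, already counted for the whole list, both higher in quercetin. That p was seen in 10.8% of all tested probe sets in either direction and in 5.04% in the higher. Whether these genes respond as a group was not tested.

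Ech1 encodes a dienoyl-CoA isomerase for unsaturated chains that is found in peroxisomes and mitochondria. Its signal was 1778, 1121, 1739 and 1514 on control arrays 1 to 4 and 2336, 2094, 1759 and 2505 on quercetin arrays 1 to 4. Quercetin array 3 lay among the control arrays and the other 3 above all of them. The means were 1538 ± 301 (SD, n = 4) and 2174 ± 324 (SD, n = 4), a log2 fold change of 0.50 (SE 0.167, limma adjusted p = 0.336).

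Eci2 encodes an enoyl-CoA isomerase that moves a double bond into the position oxidation needs. Its signal was 642, 565, 775 and 628 on the control arrays and 888, 796, 800.1 and 1009 on the quercetin arrays. Every quercetin array was above every control array, though control array 3 and quercetin array 2 were close. With each array centred on its median the groups of Eci2 overlapped, and those of Gnpat did not. The log2 fold change was 0.41 (SE 0.142, limma adjusted p = 0.343), and its 95% interval ran from 0.11 to 0.72. Another probe set carries the symbols of Eci2 and of its relative Eci3 and was not used.

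Ehhadh, the bifunctional enzyme of straight chains and a textbook target of PPAR alpha, had signals of 227, 122, 173 and 175 in control and 199, 256, 159.9 and 235 in quercetin. The groups overlapped widely, with a log2 fold change of 0.27 (SE 0.207, limma adjusted p = 0.68). Hsd17b4, the bifunctional enzyme of branched chains, had 717, 511, 669 and 579 in control and 799, 688, 589.9 and 810.1 in quercetin, a log2 fold change of 0.22. Decr2, a dienoyl-CoA reductase, had 318, 231, 315 and 252 in control and 331, 289.5, 323 and 331 in quercetin, a log2 fold change of 0.19. In all 3 genes the lowest array was control array 2, and without it the log2 fold changes were 0.13 for Ehhadh, 0.13 for Hsd17b4 and 0.11 for Decr2.

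Pecr and Scp2 were the 2 genes of this group below 0. Pecr, an enoyl-CoA reductase that also serves chain elongation, had 281, 295, 254 and 276 in control and 317, 262, 199.5 and 249 in quercetin (log2 fold change -0.12). Scp2 encodes a sterol carrier and a thiolase for branched chains from overlapping transcripts. Its brightest probe set had 4371, 3085, 3323 and 3483 in control and 3729, 3023, 3051 and 3391 in quercetin (log2 fold change -0.10), and the other had a log2 fold change of 0.14, so the sign depends on the probe set. The oxidases Acox2 and Acox3, which act on branched chains and bile acid precursors, were dim, at 7.32 to 49.3 and 3.81 to 53.7 over all arrays.

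**Figure D3:**
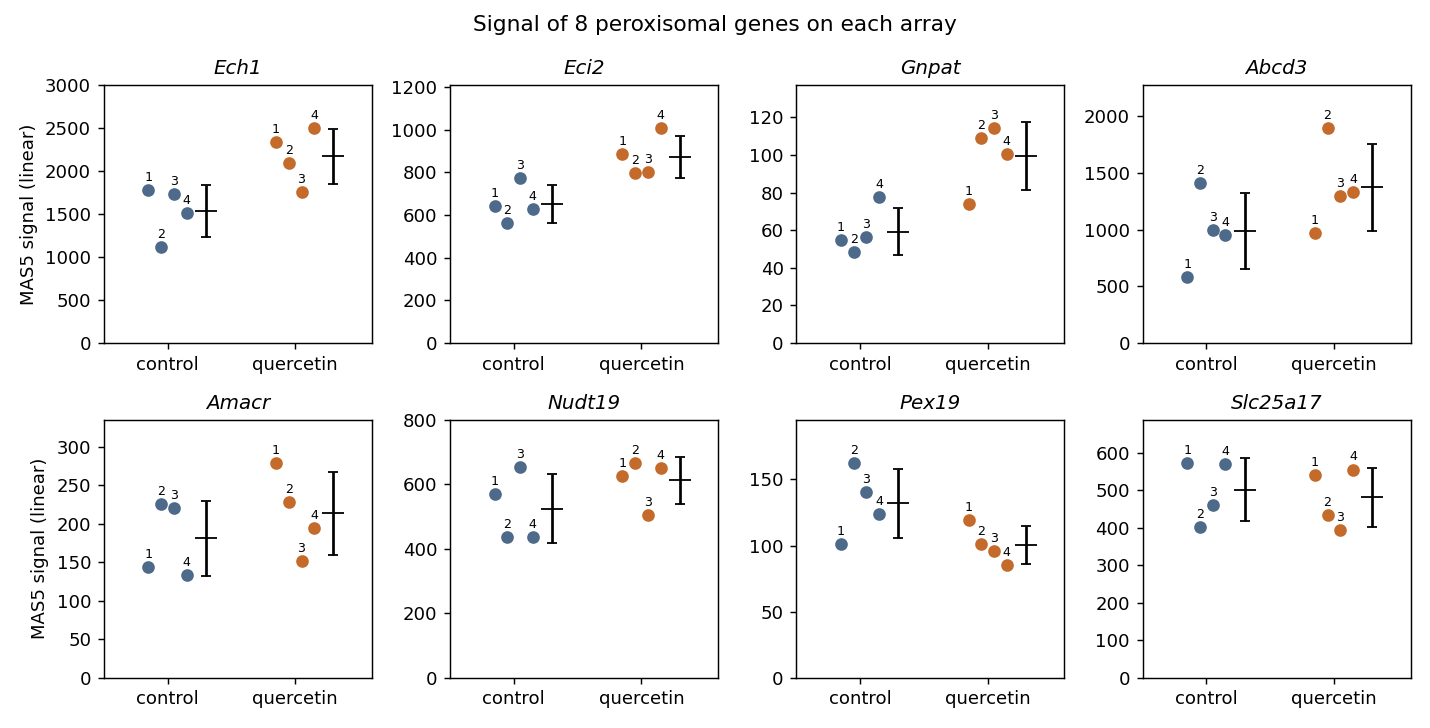
MAS5 signal (linear, y axis from 0) of 8 peroxisomal genes on control (blue) and quercetin (orange) arrays, numbered by array. Bars give the mean and SD of 4 arrays. In Eci2 alone of these 8 the groups do not overlap, with 565 to 775 in control and 796 to 1009 in quercetin.

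Ether lipid synthesis begins in the peroxisome, where Gnpat acylates dihydroxyacetone phosphate, Agps swaps the acyl chain for a fatty alcohol, and Far1 supplies that alcohol. Gnpat had signals of 54.6, 48.5, 56.3 and 77.5 in control and 74.1, 109, 114 and 101 in quercetin. Quercetin array 1 lay just below control array 4, and the other 3 quercetin arrays were above all controls. The means were 59.2 ± 12.7 (SD, n = 4) and 99.6 ± 17.9 (SD, n = 4), a log2 fold change of 0.62 (SE 0.22, limma adjusted p = 0.349), which the added 16 makes smaller than the ratio of the signals.

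A dimmer probe set of Gnpat had signals of 45.7, 104, 13 and 57 in control and 51, 95.9, 66.9 and 74.1 in quercetin, with the groups overlapping (log2 fold change 0.46, SE 0.372). Averaged over both probe sets, Gnpat had a log2 fold change of 0.54 and an unadjusted p of 0.0531 in limma. Far1, the fatty acyl-CoA reductase, had signals of 242, 94.7, 331 and 225 in control and 367, 349, 177 and 247 in quercetin, a log2 fold change of 0.39 (SE 0.318) with wide overlap. Control array 2 was by far the lowest, and without it the value was 0.06. Agps was dim, at 13.5 to 56.8 in control and 8.65 to 36 in quercetin.

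Alpha-oxidation removes a single carbon from branched fatty acids such as phytanic acid, and the racemase Amacr readies branched chains for beta-oxidation. All 3 genes were tested, with 3 above 0 and 0 past limma's adjusted threshold or an unadjusted p of 0.05. Amacr had signals of 144, 226, 220.0 and 134 in control and 279, 228, 152 and 195 in quercetin, so the groups interleaved (log2 fold change 0.22, SE 0.224). Phyh, the phytanoyl-CoA hydroxylase, had 581 to 885 in control and 652 to 1064 in quercetin, a log2 fold change of 0.01 that turned negative under quantile normalisation (-0.01). A dimmer Phyh probe set had a log2 fold change of 0.17 (SE 0.235). Hacl1, the lyase of the pathway, had 64.9 to 123 in control and 95.8 to 132 in quercetin (log2 fold change 0.13).

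Fatty acyl groups enter the peroxisome through ABC transporters that work as dimers. Abcd3, the abundant carrier of branched and dicarboxylic chains, had signals of 585, 1413, 992 and 956 in control and 971, 1897, 1293 and 1327 in quercetin. Control array 2 was higher than 3 of the 4 quercetin arrays. The log2 fold change was 0.49 (SE 0.246, limma adjusted p = 0.503). Without control array 1 it was 0.27, without quercetin array 2 it was 0.33, and without control array 2 it was 0.69. Abcd4, which handles cobalamin in lysosomes rather than fatty acids, had 16.6 to 72.1 in control and 24 to 57.7 in quercetin. Abcd2, a carrier of very long chains, was dim, at 3.69 to 26.3 over all arrays.

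Thioesterases and Nudix hydrolases of the peroxisome set free CoA or break down coenzymes. Nudt19, which cleaves CoA, had signals of 571, 436, 654 and 436 in control and 626, 667, 506 and 649.6 in quercetin. Control array 3 was above 3 of the 4 quercetin arrays, and the log2 fold change was 0.23 (SE 0.165, limma adjusted p = 0.653). Acot8, a broad acyl-CoA thioesterase, had 170.0 to 262 in control and 219 to 319 in quercetin (log2 fold change 0.15, or 0.02 without control array 2). Nudt12, which acts on NADH, had 81.6 to 110.2 in control and 62.2 to 118 in quercetin. Acot4, a thioesterase of dicarboxylic chains, was dim, at 5.27 to 63.3 over all arrays.

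The 12 peroxins of the list were all tested, and 0 had an unadjusted p under 0.05, adjusted p-values in limma being at least 0.577. Their log2 fold changes had a median of 0.10, with 8 above 0 and 4 below. Pex3, Pex16 and Pex19 insert membrane proteins. Pex19, the carrier among them, had signals of 101, 163, 141 and 124 in control and 119.6, 101, 95.5 and 85.1 in quercetin. Control array 1 lay among the quercetin arrays, and the log2 fold change was -0.34 (SE 0.197, limma adjusted p = 0.577), the lowest of the 32 tested genes. Leaving out control array 1 necessarily parted the groups of Pex19, and in that fit 11.0% of all tested probe sets did not overlap. In each fit without 1 array the adjusted p of Pex19 in limma stayed above the threshold. The other 2 Pex19 probe sets on the array carry a second symbol and were not used. Pex3 had 90.1 to 128 in control and 92.6 to 138 in quercetin, and Pex16 had 112 to 212 and 164 to 209.

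Pex5 and Pex7 are the receptors that bring matrix enzymes to the peroxisome. Pex5 had signals of 287, 161, 226 and 213 in control and 248, 333, 207 and 282 in quercetin on its brightest probe set (log2 fold change 0.26, SE 0.198, or 0.13 without control array 2). A dimmer Pex5 probe set went the other way, with 49.6, 49.3, 64 and 58 in control and 30.7, 19.6, 45.3 and 44.1 in quercetin. On that probe set every quercetin array was below every control array (log2 fold change -0.51, SE 0.269, limma adjusted p = 0.527), so the direction of Pex5 is uncertain. Pex7 had 113 to 158 in control and 121 to 142 in quercetin (log2 fold change -0.07).

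Pex13 and Pex14 form the docking site at the membrane. Pex13 had 469 to 738 in control and 525 to 685 in quercetin, and Pex14 had 77.6 to 175 and 91.6 to 147. Pex2 and Pex10 belong to the ubiquitin ligase that recycles Pex5. Pex2 had signals of 297, 215, 293 and 318 in control and 323, 337, 310.0 and 341 in quercetin, with quercetin array 3 the only one below the highest control (log2 fold change 0.22, SE 0.156, limma adjusted p = 0.644). Without control array 2 the log2 fold change of Pex2 was 0.11. Pex10 had 52.9 to 73 in control and 42.5 to 88.1 in quercetin.

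Pex6, an ATPase that pulls Pex5 back to the cytosol, had signals of 26.5, 96, 115 and 81.2 in control and 64.2, 134, 85.1 and 126 in quercetin, with control array 1 far below the rest (log2 fold change 0.38, SE 0.339). Without control array 1 that value was 0.03. Pex26, its membrane anchor, had 158 to 289.6 in control and 193 to 313 in quercetin. Pex11a, which elongates peroxisomes before they divide and responds to PPAR alpha in liver, had 250, 257, 169 and 221 in control and 243, 251, 339 and 221 in quercetin. Its groups overlapped, with a log2 fold change of 0.22 (SE 0.185, limma adjusted p = 0.724). Dimmer probe sets of Pex11a, Pex2 and Pex16 had log2 fold changes of 0.25 (SE 0.372), 0.29 (SE 0.22) and 0.46 (SE 0.308), with the groups overlapping.

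On their brightest probe sets the membrane channels and carriers had log2 fold changes from -0.06 to 0.06, and 0 of the 3 had an unadjusted p under 0.05 in limma. Slc25a17, which exchanges CoA and other nucleotide cofactors, had signals of 573, 402, 461 and 569 in control and 539.6, 434, 392 and 555 in quercetin (log2 fold change -0.06, SE 0.167, limma adjusted p = 0.934). Pxmp2, a pore for small solutes, had 105 to 157 in control and 112 to 145 in quercetin, and the membrane protein Pxmp4 had 70.5 to 121 and 80.2 to 128. A dimmer probe set of Pxmp4 had a log2 fold change of 0.46 (SE 0.332), with the groups overlapping. Hao2, a hydroxy acid oxidase best known from liver and kidney, had signals of 3 to 13.1 on all 8 arrays, under the filter's lower limit, a signal of about 29.4.

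Averaged over the 32 tested genes, the arrays of the diets overlapped. The mean deviation from each gene's own mean, on the log2(signal + 16) scale, was -0.04, -0.18, 0.03 and -0.10 on control arrays 1 to 4 and 0.10, 0.14, -0.03 and 0.08 on quercetin arrays 1 to 4. Quercetin array 3 lay below control array 3, so these means overlapped. For the beta-oxidation genes the same means were 0.09, -0.34, -0.02 and -0.13 in control and 0.21, 0.08, -0.11 and 0.22 in quercetin.

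**Figure D4:**
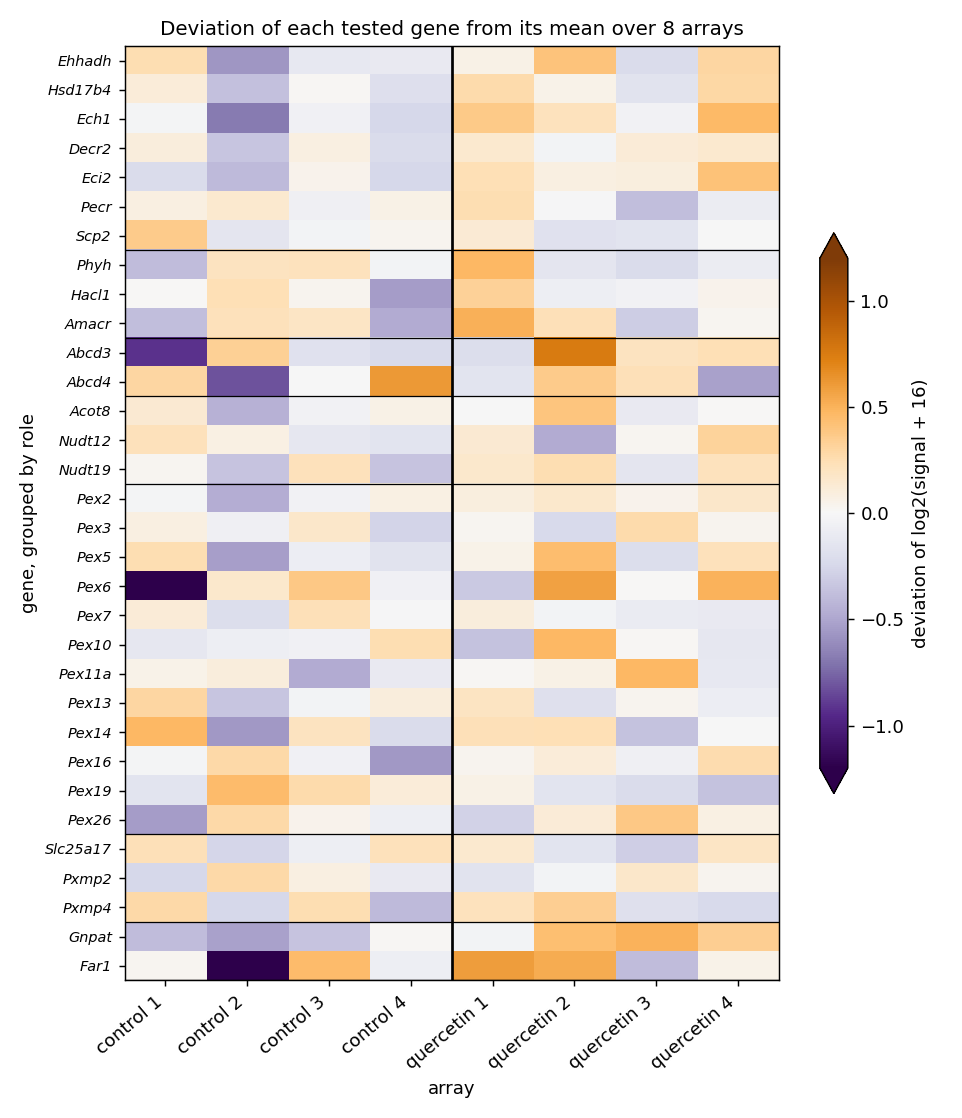
Deviation of log2(signal + 16) of each of the 32 tested genes (rows, grouped by role) from its mean over the 8 arrays (columns), with purple below and orange above the mean. Control array 2 holds the lowest value of 15 of the 32 genes.

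Control array 2 had the lowest signal in 15 of the 32 genes, or 46.9%, while it was lowest in 19.5% of all tested probe sets. It was highest in 3 of the 32, or 9.38%, and in 23.8% of all tested probe sets. Its correlation with the rest of the arrays was the weakest on average, 0.927 against 0.941 to 0.955. Its GAPDH 3′ to 5′ signal ratio, which rises with shortened RNA, was 3.79 against 1.58 to 2.36 on the other arrays. Without it, the log2 fold change of Ech1 was 0.36, of Eci2 0.35 and of Gnpat 0.55, and the list median was 0.11. With the GAPDH ratio as a covariate the 3 values were 0.44, 0.39 and 0.61. Without both control arrays 1 and 2, they were 0.41, 0.31 and 0.48, and Ech1 alone of these 3 kept an unadjusted p under 0.05 in limma. Of the 21 tested genes whose log2 fold change was at least 0.1 from 0, 17 had a value that moved over 1.5 times or turned when 1 of the 8 arrays was left out. The other 4 were Ech1, Eci2, Gnpat and Pex19.

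Epithelial and other markers were measured beside these genes. Of 13 colonocyte markers, all tested, 7 were above 0 and 6 below, with a median log2 fold change of 0.01, and their summed signal was 118589 to 138330 in control and 116766 to 129093 in quercetin. The colonocyte marker Slc9a3, a sodium-proton exchanger, was the only one of the 13 with an unadjusted p under 0.05 (log2 fold change 0.72, limma adjusted p = 0.273). Of all tested probe sets 10.8% had that p in either direction and 5.04% in the higher, so single markers at that p are no result about a cell type. Goblet cell markers summed to 65567 to 75585 in control and 62860 to 76550 in quercetin. Smooth muscle markers summed to 515 to 670.2 in control and 527 to 637 in quercetin. Tagln, the dimmest of them, was at 9.9 or less on every array, while Smtn, Myh11 and Acta2 had mean signals of 193, 146 and 122. Of 10 leukocyte markers 9 were measured, summing to 213 to 373 in control and 339 to 605 in quercetin. Among the 3 tested, all above 0, Lyz2 alone had an unadjusted p under 0.05 (log2 fold change 0.57, limma adjusted p = 0.363). The markers did not move together. Among those too dim to be tested, mean signals in control and quercetin were 26.6 and 9.07 for Cd3e and 31.6 and 21.3 for Cd68. For Ms4a1, also too dim, they were 12.8 and 45.9. Itgam, the dimmest leukocyte marker measured, was at 9.83 or less on every array, while Lyz2 had a mean signal of 172. Hepatocyte and adipocyte markers summed to 93.1 to 296 and 232 to 343 in control and to 136 to 189 and 249 to 324 in quercetin, and fibroblast markers to 222 to 391 and 223 to 383. The part of these cells in the values of Ech1, Eci2 and Gnpat was not tested.

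Other genes of the peroxisome came from a list of 43 that were not members. Of these, 33 were measured and 28 tested, 19 above 0 and 9 below, with a median log2 fold change of 0.03. None passed limma's adjusted threshold. For 1 of 28 the unadjusted p was under 0.05, against 10.8% of all tested probe sets, and its groups did not overlap, against 6.39%. That gene was Cat, the catalase that removes the hydrogen peroxide made by the oxidases, with 654, 817, 977 and 794 in control and 1492, 1381, 1111 and 1357 in quercetin (log2 fold change 0.72, SE 0.15, limma adjusted p = 0.23).

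The nuclear receptors that act on peroxisomal genes were also measured. Ppara had signals of 2.29, 3.72, 2.05 and 2.65 in control and 5.83, 3.84, 2.76 and 1.3 in quercetin, too dim to be tested. The signal of Ppard was 483 to 619 in control and 495 to 597 in quercetin (log2 fold change 0.01), and that of Pparg was 205 to 437 and 238 to 506 (log2 fold change 0.17). The coactivators Ppargc1a and Ppargc1b had log2 fold changes of -0.02 and 0.22. Of the receptors, partners and cofactors, 10 were measured and 8 tested, and 0 of the 8 had an unadjusted p under 0.05 in limma. Med1, a coactivator subunit of the Mediator complex, had the largest difference of the 8 (log2 fold change -0.29, SE 0.145).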

How the data were processed

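Biotin-labelled RNA was hybridised to Affymetrix arrays, 4 per diet. The authors deposited linear intensity values for each probe set, which come from MAS5 (per the submitters' processing notes), and the 2% trimmed mean of the deposited intensity was 200.1 on every array. Scaling of this kind assumes that most transcripts keep their level. The sources used here give no genome build and no detection calls, and a dim signal was not called absent. Control array 2, and after it control array 1, correlated least with the remaining arrays.

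Of 31099 probe sets, 57 controls were left out. Signals were converted to log2(signal + 16), which understates changes of dim genes, and the upper 60% by mean over all arrays were tested. Limma 3.58.1 in R 4.3.3 (trended eBayes, two-sided, Benjamini-Hochberg over all 18625 tested probe sets, threshold 0.05) compared the diets, and every p is from it. The limma fit was also run on simulated data with independent noise in each probe set and no outlying array. That run therefore cannot show how outlying arrays affect the fit.

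The members, gene lists and tests were chosen with earlier results of these data known. Members with an unadjusted p under 0.05 or without overlap, and the member with the smallest p in each role, were given on every array. Several others were also given on every array, chosen after their values were seen, and the rest are given by range. Abcd3, Ech1 and Scp2 have the brightest probe sets of the list. Alternatives were other pseudocounts, scalings and filters, array weights, a replicate block, eBayes without trend, averaged probe sets, a GAPDH ratio covariate and left-out arrays. The number of arrays limits the precision, with a median standard error of 0.222 over all tested probe sets.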

Additional observations from a re-analysis of the deposited data

How the results depend on the processing

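Under all 20 alternatives 0 members passed limma's adjusted threshold, with a lowest adjusted p of 0.148 (Ech1 with the GAPDH covariate). A higher signal at an unadjusted p under 0.05 was seen in 1 to 4 of the 29 to 38 tested members. Of all tested probe sets 3.14% to 6.99% were higher at that p. The list median stayed above 0, from 0.09 (without control arrays 1 and 2) to 0.20. Leaving out 1 array gave medians of 0.11 to 0.17, with 3 to 4 higher and 0 to 1 lower members at that p. Of all tested probe sets 7.96% to 11.1% had that p in either direction and 3.14% to 5.62% in the higher. These fits gave 1 to 3 higher and 0 to 1 lower members without overlap, where 8.83% to 11.3% of all tested probe sets did not overlap. The lower member was Pex19, without control array 1. Left-out arrays changed which probe sets passed the filter, and non-overlap was not recounted for fits that keep the values. Without control arrays 1 and 2, 1 higher member of 33 had that p. Of all tested probe sets 3.42% did in that direction and 7.46% in either. In the same fit 2 higher and 1 lower of 33 did not overlap, against 17.6% of all tested probe sets. Under quantile normalisation 3 higher members did not overlap, against 6.62% of all tested probe sets.

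With the replicate block, 4 of 32 members had that p (Abcd3 joined), all higher in quercetin, and the median was 0.15. Among all tested probe sets the share was 11.1% in either direction and 4.79% in the higher. The numbers do not pair the samples, as the correlations of same-numbered deviations were -0.151 to 0.163.

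Direction held in every alternative for 18 of 32 genes. The other 14, mostly near 0, turned in 58 of their 278 fits. Averaging probe sets turned Scp2 (0.0156) and Pex5 (-0.125). Phyh turned with quantile normalisation (-0.00826), array weights (-0.0629) and without control arrays 1 and 2 (-0.0850). Median centring turned Abcd4 (0.00634), Nudt12 (0.0460), Pex10 (0.0481), Pex13 (0.0339) and Pxmp2 (0.0498). Nudt12 also turned with a pseudocount of 64 (0.0019), quantile normalisation (0.00040), array weights (0.0917) and without control arrays 1 and 2 (0.139). Pex10 turned with a pseudocount of 64 (0.0047), quantile normalisation (0.0624) and the GAPDH covariate (0.0103), which also turned Pex14 (-0.0257) and Pxmp2 (0.0405). Pxmp2 turned with a pseudocount of 1 (0.00099), quantile normalisation (0.00069), array weights (0.0466) and without control arrays 1 and 2 (0.0137). Leaving out 1 array turned 12 genes, with ranges of -0.323 to 0.155 (Abcd4), -0.0309 to 0.229 (Hacl1), -0.108 to 0.153 (Nudt12), -0.160 to 0.118 (Pex10), -0.132 to 0.0801 (Pex13), -0.123 to 0.220 (Pex14), -0.00739 to 0.263 (Pex26), -0.0377 to 0.132 (Pex3), -0.150 to 0.0811 (Phyh), -0.0824 to 0.0914 (Pxmp2), -0.0586 to 0.164 (Pxmp4) and -0.157 to 0.0299 (Slc25a17). The cause of these turns was not tested.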
